A study of Homo sapiens with 6 samples.

Results

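JMJD6 peaks without an N-Myc peak were genomic intervals at which chromatin immunoprecipitation and sequencing (ChIP-seq) of CHP-134 neuroblastoma cells gave a JMJD6 peak and no N-Myc peak. They were chosen by their coordinates: an interval of the JMJD6 list was taken when no interval of the list shared by both proteins had the same chromosome, start and end. The rule took 320 of 561 JMJD6 peaks, out of 10492 different intervals in the JMJD6 and N-Myc lists together. The other 241 JMJD6 peaks, called shared peaks here, had the same start and end in both lists, and 9931 N-Myc peaks had no JMJD6 peak and are called N-Myc peaks without JMJD6. The choice rests on the 2 peak lists, so the absence of an N-Myc peak at these intervals is a description and not a result.

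CHP-134 is an established neuroblastoma line with amplified MYCN, for which the labels give no treatment other than cross-linking, and it stands for 1 cell line only. N-Myc was precipitated with the antibody sc-53993 from cells cross-linked with formaldehyde alone. JMJD6 was precipitated with the antibody ab64575 from cells cross-linked with disuccinimidyl glutarate (DSG) and then formaldehyde. Each protein had 3 samples, not said to be separate cultures, and the deposited lists hold the peaks common to the 3. Protein, antibody and cross-linker therefore cannot be told apart, and neither read depth nor the value of a single replicate can be read from the lists, which give positions alone.

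JMJD6 is a Jumonji domain oxygenase found in the nucleus, known for the hydroxylation of lysines in splicing proteins and studied as a regulator of transcription. N-Myc binds DNA with MAX at E-boxes, of which CACGTG is the canonical form. Promoters of the major histocompatibility complex (MHC) are a textbook case of composite control. In class II promoters an X box, bound by the RFX complex and by factors of the CREB family, lies at a fixed distance from a Y box, an inverted CCAAT box (ATTGG) bound by NF-Y, and together they hold the coactivator CIITA. Class I and B2M promoters carry a related module, at which NLRC5 acts.

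The first sequences shown are from intervals with both a GCAAC word and an ATTGG word, since these words in this order make up part of the X and Y boxes of class II promoters. Each runs 5′ to 3′ on the strand named, in hg19, and capitals mark GCAAC and ATTGG. A promoter is named where the interval overlapped a listed promoter. The MYBPC2 interval only reached the edge of one, with its centre 1199 bp upstream of the listed start, and the stretch printed lies outside that promoter.
HLA-DRA, downstream, chr6:32441440-32441488, minus strand: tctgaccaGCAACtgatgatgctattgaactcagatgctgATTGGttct
HLA-DOA promoter, chr6:32977427-32977476, minus strand: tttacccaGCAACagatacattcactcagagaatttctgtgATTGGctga
upstream of MOG, chr6:29617932-29617981, minus strand: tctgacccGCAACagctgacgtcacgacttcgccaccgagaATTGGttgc
NASP promoter, chr1:46049185-46049234, minus strand: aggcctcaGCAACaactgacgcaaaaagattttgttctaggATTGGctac
ARAP1 promoter, chr11:72433627-72433676, plus strand: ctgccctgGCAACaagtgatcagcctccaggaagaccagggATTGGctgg
RAB4B promoter, chr19:41283477-41283526, minus strand: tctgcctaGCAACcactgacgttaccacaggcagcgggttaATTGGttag
MYBPC2 promoter, chr19:50935003-50935052, plus strand: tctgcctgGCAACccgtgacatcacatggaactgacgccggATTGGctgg
STAG1 intron, chr3:136378268-136378319, minus strand: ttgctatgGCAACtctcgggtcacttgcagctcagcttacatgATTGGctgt
WNT8B intron, chr10:102241428-102241478, plus strand: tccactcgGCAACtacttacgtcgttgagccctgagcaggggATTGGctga
DYRK1A intron, chr21:38807517-38807568, plus strand: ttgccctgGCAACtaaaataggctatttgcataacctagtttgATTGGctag

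At the class I promoters the intervals shared a stretch around a CCAAT box in the direction of the gene, and capitals mark CCAAT.
HLA-C, chr6:31239884-31239931, minus strand: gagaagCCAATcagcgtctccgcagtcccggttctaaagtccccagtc
HLA-E, chr6:30457223-30457270, plus strand: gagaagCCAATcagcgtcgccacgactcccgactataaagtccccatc
HLA-L, chr6:30227304-30227351, plus strand: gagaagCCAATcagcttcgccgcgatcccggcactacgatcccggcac
HCP5, chr6:31430899-31430946, plus strand: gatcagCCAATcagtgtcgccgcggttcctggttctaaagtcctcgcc

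Away from promoters, 34 intervals held copies of 1 dispersed repeat, of which 4 are shown over a stretch around the part that all 34 matched. Capitals mark AAGTCA, the word with the lowest p among those more frequent in the intervals away from start sites.
FBXL13 intron, chr7:102689458-102689534, minus strand: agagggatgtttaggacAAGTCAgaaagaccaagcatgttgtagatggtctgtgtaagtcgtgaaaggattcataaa
FANCC intron, chr9:98089756-98089831, minus strand: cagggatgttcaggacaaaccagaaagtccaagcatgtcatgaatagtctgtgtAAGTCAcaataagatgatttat
OSBPL5 intron, chr11:3135620-3135695, plus strand: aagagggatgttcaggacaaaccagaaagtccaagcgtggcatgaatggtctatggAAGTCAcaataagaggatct
IL23R intron, chr1:67715932-67716007, minus strand: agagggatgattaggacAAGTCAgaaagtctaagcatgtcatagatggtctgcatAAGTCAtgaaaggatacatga

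The 320 intervals were 126 to 2656 bp wide, with a median of 393.5 bp, against a median of 574 bp for the 241 shared peaks and 416 bp for the N-Myc peaks without JMJD6. All 241 shared peaks had the same start and end in both lists, so a shared interval may be the union of a peak of each protein, and its width and the motif shares over whole intervals may be those of a union. Of the 320, 100 lay in clustered regions, which were set aside by position. These were 48 beside an assembly gap (a gap of 50 kb or more, no farther than 1 Mb away), 34 on chromosome 2 between 14 and 18 Mb, 13 on chromosome 1 between 89 and 90 Mb and 5 on the mitochondrial genome. The remaining 220 intervals, 68.8% of the set, are the basis of every test below. They covered 104.0 kb, with a median width of 399 bp. By the same rule 67 shared peaks (27.8%) and 8704 N-Myc peaks without JMJD6 (87.6%) remained.

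Chromosomes 6 and 19 held the largest numbers outside clustered regions, 32 and 29 of the 220 intervals, followed by chromosome 1 with 23. Of the 8704 N-Myc peaks without JMJD6, chromosomes 6, 19 and 1 held 504, 391 and 855, and the difference was not tested. At the middle of the interval, 95 of the 220 lay in an intron, 94 between genes, 17 in an untranslated exon, 11 in an exon of a non-coding transcript and 3 in a coding exon (TPP1, PRKD2 and SYT5). In 200 of the 220 (90.9%) every 75-base word occurred once in the genome, so a read of that length could be placed there.

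**Figure D1:**
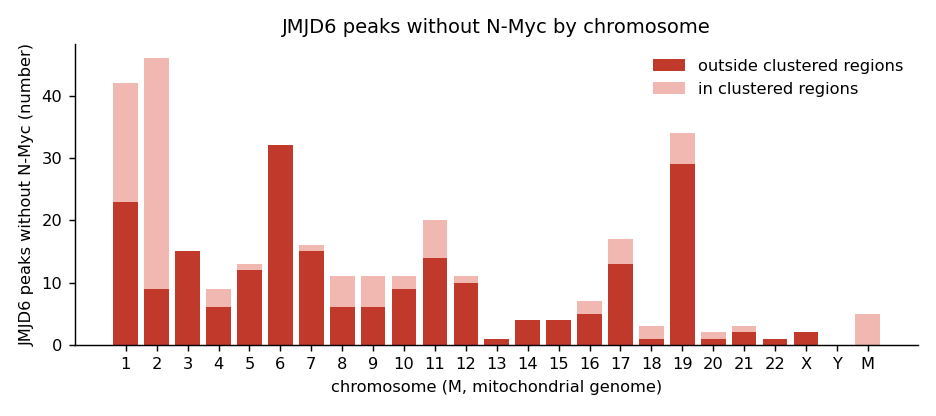
Number of JMJD6 peaks without N-Myc on each chromosome, with those in clustered regions in the lighter shade. Chromosome 6 had 32 and chromosome 19 had 29 outside clustered regions, while most of those on chromosome 2 were clustered.

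Distance to N-Myc varied widely. None of the 320 intervals overlapped an N-Myc peak, 35 had one within 1 kb and 88 within 10 kb, and the median gap to the nearest N-Myc peak was 40.4 kb (51.5 kb outside clustered regions). The widest gap was 2116 kb, at the promoter of TNFAIP8. The 5 intervals nearest to N-Myc, the ones just inside the rule, lay 53 bp from an N-Myc peak (chr2:15156750-15157327), 57 bp (chr14:57476669-57476983, an intron of OTX2-AS1), 85 bp (chr2:15382830-15383101, an intron of NBAS), 89 bp (chr4:49637109-49637357) and 95 bp (chr11:69455817-69455998, the CCND1 start site). Partial overlap just outside the rule could not be seen, since shared peaks were listed with 1 interval for both proteins.

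Promoters were read from the study's list of JMJD6-bound regions within 1 kb of a start site. Of 177 such promoters, 102 (57.6%) held a JMJD6 peak without N-Myc, through 77 intervals and 89 gene symbols, and 93 of the 102 were absent from the N-Myc promoter list. The median distance from the centre of the interval to the listed start site was 208.5 bp. The groups below were defined by gene symbol with earlier results of these data known, so the counts are descriptions and carry no test.

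Genes of the MHC and antigen presentation were the largest of the groups looked for. They made up 17 of the 89 symbols (19.1%), against 1 of 4150 symbols (0.0241%) in the N-Myc promoter list, which was TAPBPL. All 17 JMJD6-listed symbols of this group were reached by an interval without N-Myc. The 16 intervals were 236 to 883 bp wide, with a median of 557 bp, and lay 11.1 to 302 kb from the nearest N-Myc peak. In all 16, every 75-base word was unique, although class I genes resemble each other. CCAAT was present in 15 of the 16 and the canonical E-box in none. Of all 82 intervals outside clustered regions and within 1 kb of a start site, 69 held CCAAT (84.1%) and 4 the canonical E-box (4.88%).

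Class I genes, which present peptides from within the cell to cytotoxic T cells, included HLA-B, HLA-C, HLA-E, HLA-F and the pseudogene HLA-L. The interval at HLA-C (chr6:31239825-31240061) was 237 bp wide, with its centre 30 bp upstream of the listed start. B2M, the light chain that all class I molecules need, had an interval of 752 bp (chr15:45003141-45003892). HCP5, a long non-coding RNA gene of the class I region outside the fixed groups, had 1 of 382 bp with the same stretch of sequence. The stretches printed above show how close these promoters are: the central windows of these HLA genes and of HCP5 aligned to each other as part of 1 set.

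Class II genes, whose products present peptides from outside the cell to helper T cells and are usually held to professional antigen-presenting cells, were represented by HLA-DRA, HLA-DQB1, HLA-DPB1, the pseudogene HLA-DPB2, HLA-DOA, HLA-DMA and HLA-DMB. HLA-DRA had the widest interval of the group, 883 bp, and HLA-DQB1 the narrowest, 236 bp (chr6:32634419-32634654). HLA-DMA and HLA-DMB, which load peptides onto class II molecules, had intervals of 596 and 726 bp. A second interval, of 522 bp (chr6:32441333-32441854), lay 33930 bp from the HLA-DRA start site and held the X-type and CCAAT words shown above. The class II invariant chain gene CD74, also outside the fixed groups, had an interval of 482 bp at its promoter (chr5:149792386-149792867) and the widest interval outside clustered regions, 2496 bp, in its gene body (chr5:149788970-149791465).

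The peptide supply for class I was represented by TAP1, PSMB9 and PSMB8. TAP1, a subunit of the peptide transporter, and PSMB9, an immunoproteasome subunit, are divergent genes and shared 1 interval of 383 bp (chr6:32821520-32821902). PSMB8, another immunoproteasome subunit, shared an interval of 716 bp with the antisense gene PSMB8-AS1 (chr6:32812229-32812944).

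Butyrophilin genes, which encode cell surface proteins recognised by or acting on T cells, supplied 6 of the 89 symbols and 0 of the 4150 in the N-Myc list. Their intervals were wide, with a median of 995.5 bp. BTN3A2 had 1455 bp (chr6:26364755-26366209), BTN2A3P 1156 bp, BTN3A1 1118 bp, BTN2A2 873 bp, BTN2A1 845 bp and BTN3A3 223 bp. CCAAT was present in all 6 and the canonical E-box in 1, BTN3A2, beside 84.1% and 4.88% of the 82 intervals within 1 kb of a start site. The BTN3A genes aligned to each other, as did BTN2A1 and BTN2A2, so these 6 are not 6 separate sequences. MR1, which presents vitamin metabolites to T cells and belongs to none of the groups, had an interval of 612 bp (chr1:181002724-181003335).

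**Figure D2:**
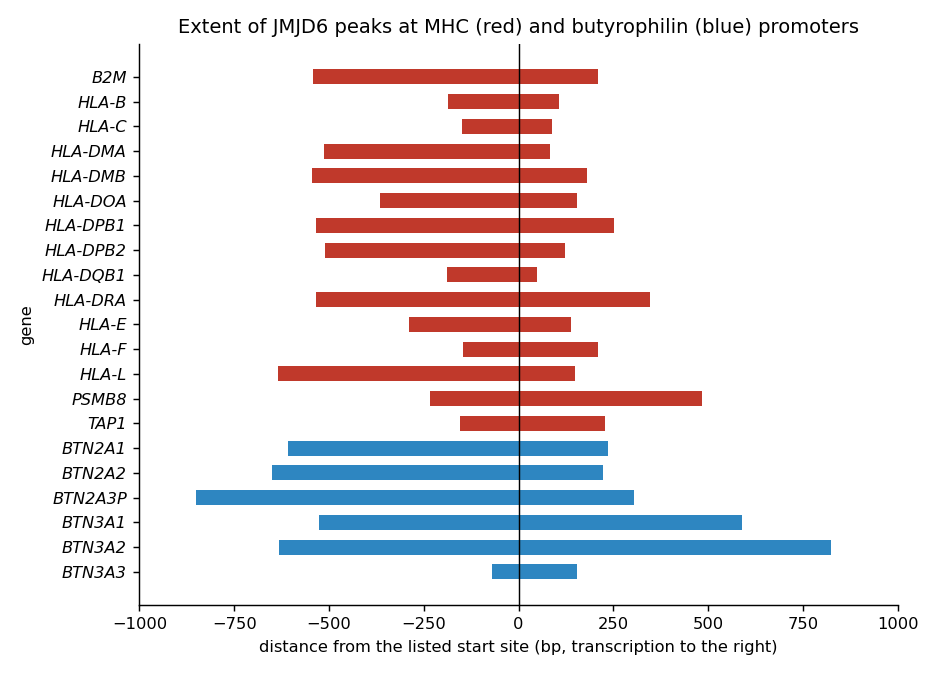
Extent of JMJD6 peaks without N-Myc at MHC and antigen presentation promoters (red) and butyrophilin promoters (blue), in bp from the listed start site with transcription to the right. Every bar spans the start site, and the widest are at BTN3A2 and BTN2A3P.

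The other groups were small. Zinc finger genes gave 3 symbols (ZNF365, ZNF429 and ZNF672; 3.37%), close to their 3.71% share of the N-Myc list. Antisense and LINC genes gave 3 (LINC00265, LINC02420 and PSMB8-AS1; 3.37%) against 5.205%. Splicing factor genes gave 2, HNRNPUL2 and its readthrough HNRNPUL2-BSCL2, through 1 interval of 779 bp that also covered TTC9C. MIR4442, beside TOP2B, was the only microRNA, and RNR2 the only mitochondrial gene. No symbol came from the histone, small nuclear and nucleolar RNA, ribosomal protein, translation factor, DEAD box helicase or GBP groups, which made up 0.145%, 1.37%, 1.73%, 1.45%, 0.819% and 0.0241% of the N-Myc list. A count of 0 of 89 symbols allows a share of up to 3.37%, so no difference was detectable for these groups.

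Of the promoters with the widest intervals, those outside the groups were NASP (a histone chaperone, 1042 bp), EPS15 (an endocytic adaptor, 975 bp), the shared VCPIP1 and C8orf44 promoter (854 bp), the apolipoprotein gene APOC1 (794 bp) with the pseudogene APOC1P1 (837 bp), and PRCC (784 bp). PRCC was also in the N-Myc list, as were CCND1, PTDSS2, PCF11, USP36, BTRC, YWHAQ and RNF44. At CCND1, PTDSS2, PCF11 and RNF44 the nearest N-Myc peak was 0.095, 0.594, 0.759 and 0.512 kb from the interval. It was 25.5 kb away at PRCC, 10.6 kb at BTRC, 50.9 kb at USP36 and 383 kb at YWHAQ. For these last promoters the N-Myc promoter list and the N-Myc peak list thus differed, and the reason was not tested. At CCND1, the cyclin D1 gene, the JMJD6 interval of 182 bp lay beside an N-Myc peak rather than over it.

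Start sites were compared over all intervals outside clustered regions. Of the 220 JMJD6 peaks without N-Myc, 82 (37.3%, exact 95% interval 30.9 to 44.03%) lay within 1 kb of an annotated start site, against 46 of 67 shared peaks (68.7%). The difference passed a two-sided Fisher's exact test (odds ratio 0.273, 95% interval 0.144 to 0.504, Benjamini-Hochberg adjusted p = 5.04e-05). Against N-Myc peaks without JMJD6 (42.8%) it did not (odds ratio 0.795, 0.595 to 1.06, Fisher's exact test, adjusted p = 0.187). The comparison with shared peaks turned with all clustered regions included (28.4% against 26.97%, Fisher's exact test, adjusted p = 0.902) and ended in peaks at least as wide as the median of their list (57.3% against 73.9%, adjusted p = 0.158). Against N-Myc peaks without JMJD6, the share was lower with clustered regions included (28.4% against 42.9%, adjusted p = 6.48e-07) and with chromosome 6 between 26 and 34 Mb left out (30.2% against 42.6%, adjusted p = 0.00161), each by Fisher's exact test. It was the higher of both, without passing, in the wider peaks (57.3% against 47.8%, Fisher's exact test, adjusted p = 0.158) and with members that align to each other counted once (43.2% against 42.8%, adjusted p = 1.0).

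CpG island composition, a GC content of at least 50% with an observed to expected CpG ratio of at least 0.6, was found in 42 of the 220 intervals (19.1%). It was more frequent in shared peaks (47.8%; Fisher's exact test, odds ratio 0.260, adjusted p = 5.04e-05) and in N-Myc peaks without JMJD6 (30.1%; odds ratio 0.549, adjusted p = 0.00107). The first difference turned with clustered regions included (15.6% against 14.5%, Fisher's exact test, adjusted p = 0.902). The second ended in the wider peaks (21.9% against 33.6%, Fisher's exact test, adjusted p = 0.0793) and when members that align to each other were counted once (23.5% against 30.1%, adjusted p = 0.153).

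Small RNA genes were rare. A single interval, over RNY1, the gene of a small cytoplasmic Y RNA (chr7:148684043-148684569, 527 bp, in the GHET1 promoter), overlapped a small RNA gene, whereas 5 of 67 shared peaks (7.46%) and 11 of 8704 N-Myc peaks without JMJD6 (0.126%) did (adjusted p = 0.00755 and 0.370, Fisher's exact test). The first call rests on few peaks and was lost in the wider peaks (Fisher's exact test, adjusted p = 0.127). A tRNA-like element was found in 0 of 220, which allows a share of up to 1.36%, and in 28 of the 8704 N-Myc peaks without JMJD6. Mostly non-unique sequence was found in 1 interval, against 3 shared peaks (adjusted p = 0.0817) and 21 N-Myc peaks without JMJD6 (adjusted p = 0.529), by Fisher's exact test. The share was lower than in shared peaks, past the threshold, with clustered regions included (0.938% against 10.8%, Fisher's exact test, adjusted p = 6.48e-07), with neighbours within 100 kb counted once (0 against 4.76%, adjusted p = 0.0309) and with 36-base words (1.82% against 11.9%, adjusted p = 0.00339).

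Motifs were searched on both strands over the whole interval. Of 17 motifs, 3 were more frequent (17.6% of those tested) and 5 less frequent (29.4%) in JMJD6 peaks without N-Myc than in N-Myc peaks without JMJD6. CCAAT, the core of the NF-Y site, was found in 155 of 220 intervals (70.5%) against 46.5% (Fisher's exact test, odds ratio 2.74, 95% interval 2.03 to 3.73, adjusted p = 3.45e-11). TATAAA was found in 30.9% against 18.8% (Fisher's exact test, odds ratio 1.93, adjusted p = 1.44e-04). The palindromic cyclic AMP response element, bound by CREB and ATF factors, was found in 11 intervals (5.0%) against 1.30% (Fisher's exact test, 95% interval of the odds ratio 1.91 to 7.58, adjusted p = 9.94e-04).

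The canonical E-box CACGTG was found in 9 intervals (4.09%) against 33.8% of N-Myc peaks without JMJD6 (Fisher's exact test, odds ratio 0.0835, adjusted p = 4.37e-25), and CACGCG in 9 against 16.1% (adjusted p = 6.22e-07). These words are those that N-Myc binds, so their absence goes with the choice of intervals. GGGCGG, the Sp1 site, was found in 20.9% against 31.8% (adjusted p = 0.00166), the ETS word CCGGAAG in 4.09% against 9.40% (adjusted p = 0.0129) and the CTCF motif in 1.82% against 7.36% (adjusted p = 0.00166), all by Fisher's exact test. The calls of CCAAT, the cyclic AMP response element, CACGTG and CACGCG passed in all 7 alternatives. That of TATAAA was lost with members that align to each other counted once (24.1% against 18.8%, Fisher's exact test, adjusted p = 0.253), that of the CTCF motif in the wider peaks (adjusted p = 0.279), that of GGGCGG in both of these settings (adjusted p = 0.495 and 0.415) and that of CCGGAAG in both and with neighbours within 100 kb counted once (adjusted p = 0.156, 0.345 and 0.133). The 9 intervals with CACGTG included the BTN3A2, LINC00265 and COX14 promoters and introns of WNT8B.

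Against shared peaks, 1 motif was more frequent (5.88% of those tested) and 6 less frequent (35.3%). TATAAA was the first (30.9% against 16.4%, Fisher's exact test, adjusted p = 0.0446), and its call was lost in 4 of 7 alternatives: with clustered regions included, in the wider peaks, with members at least 1 kb from any N-Myc peak and with members that align to each other counted once (adjusted p = 0.244, 0.415, 0.0580 and 0.495). The others were CACGTG (4.09% against 17.9%), CACGCG (23.9% of shared peaks), GGGCGG (46.3%), CCGGAAG (13.4%), the ZNF143 motif (5.0% against 23.9%, Fisher's exact test, adjusted p = 1.44e-04) and the G-quadruplex motif. CCAAT was found in 68.7% of shared peaks, a difference that did not pass (odds ratio 1.09, 95% interval 0.570 to 2.03). In the wider peaks 3 of the 17 motifs passed against shared peaks and 5 against N-Myc peaks without JMJD6, and against shared peaks 3 passed with clustered regions included and 4 with members that align to each other counted once. Of the calls against shared peaks, that of the ZNF143 motif alone passed in all 7 alternatives. The ZNF143 motif, a promoter element known from genes across many functions, was at 11 intervals. They included the promoters of NOS3, BTRC, FEM1A, AP2S1 and IZUMO1, and an interval in no listed promoter, centred 41 bp upstream of the CHRNB1 start site. In another interval, centred 60 bp from the PIPOX start site, the motif lay outside the listed PHF12 promoter that the interval overlapped. In the FEM1A promoter it read as follows, with the fixed letters in capitals, and it is shown because it had the lowest p against shared peaks after CACGCG.
FEM1A, chr19:4791612-4791645, minus strand: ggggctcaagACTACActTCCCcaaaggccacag
NOS3, chr7:150690007-150690040, minus strand: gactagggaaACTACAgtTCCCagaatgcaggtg

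**Figure D3:**
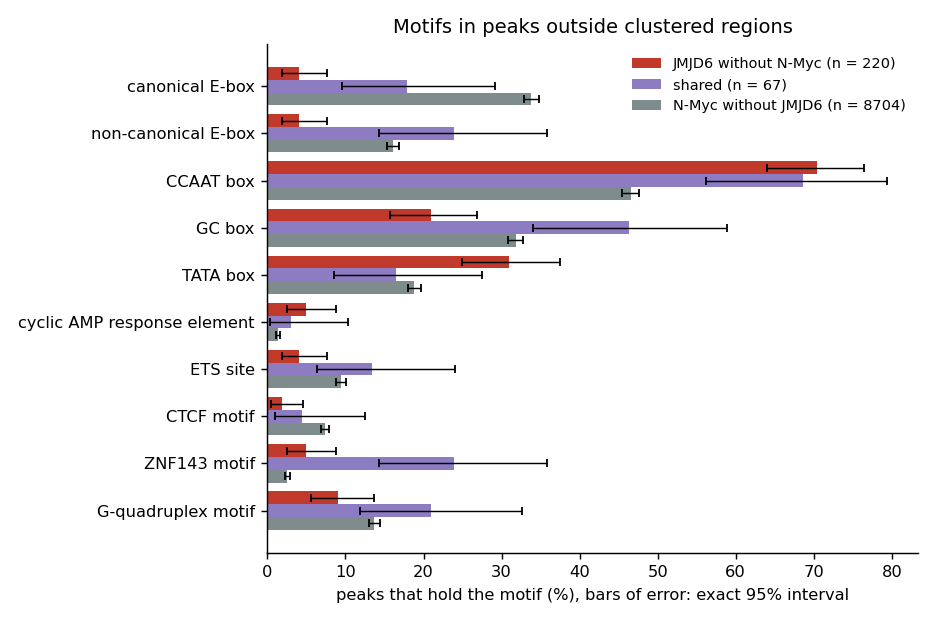
Percentage of peaks outside clustered regions that held each of 10 motifs, for 220 JMJD6 peaks without N-Myc, 67 shared peaks and 8704 N-Myc peaks without JMJD6, with exact 95% intervals. The CCAAT box was in 70.5% of the JMJD6 peaks without N-Myc and the canonical E-box in 4.09%.

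By position, CCAAT was found in 69 of 82 intervals near start sites (84.1%) and in 86 of 138 away from them (62.3%), where N-Myc peaks without JMJD6 had 47.8% and 45.6%. Shared peaks had CCAAT in 31 of 46 near start sites (67.4%) and in 15 of 21 away from them (71.4%). Their share was thus the lower near start sites and the higher away from them, and no test was run by position. The cyclic AMP response element was in 8 of 138 distal intervals (5.80%) against 16 of 4981 N-Myc peaks without JMJD6 (0.321%), and in 3 of 82 near start sites (3.66%) against 97 of 3723 (2.61%). Shared peaks had similar shares, 1 of 21 distal (4.76%) and 1 of 46 near start sites (2.17%). Of the 11 JMJD6 intervals without N-Myc that held the element, 6 lay on chromosome 19, among them introns of SHANK1 and SSC5D and a site 17036 bp from the SYT3 start. The central windows of the distal intervals had a lower GC content than those of distal N-Myc peaks without JMJD6, with medians of 39.5% and 49.0%.

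Every 6-base word was then compared within 100 bp of the centre, over 2080 words counted with their reverse complements. Near start sites, 27 words were more frequent in the 82 JMJD6 peaks without N-Myc (1.3% of those tested) and 7 less frequent (0.337%), together 1.63%, than in 3723 N-Myc peaks without JMJD6. The leading words were parts of the CCAAT box and of the X-type word. CCAATC was in 34.1% against 11.7%, CAATCA in 29.3% against 8.89% and AGCAAC in 28.0% against 8.30% (Fisher's exact test, adjusted p = 1.18e-04 for each). ACTACA, the start of the ZNF143 motif, was in 21.95% against 7.76% (Fisher's exact test, adjusted p = 0.00877), and CACGTG was in 0 against 23.1% (adjusted p = 2.49e-06). With chromosome 6 between 26 and 34 Mb left out 7 words passed, in the wider peaks 6, with neighbours within 100 kb counted once 17, and with members that align to each other counted once 16. AGCAAC and CACGTG passed in all 6 alternatives run. CACGTG is a word that N-Myc binds, so its lower share, and that of words overlapping it, goes with the choice of intervals, here and away from start sites. CCAATC and CAATCA lost their calls with chromosome 6 between 26 and 34 Mb left out (27.6% against 11.6% and 20.7% against 8.87%, Fisher's exact test, adjusted p = 0.0999 and 0.266), and ACTACA lost its call in the wider peaks (14.5% against 7.77%, adjusted p = 0.508).

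Away from start sites, 176 words were more frequent (8.46%) and 131 less frequent (6.3%), together 14.8%, in 138 intervals than in 4981 N-Myc peaks without JMJD6. AAGTCA was in 34.8% against 9.60% (Fisher's exact test, adjusted p = 6.04e-12), ACCAAT in 21.01% against 5.26% (adjusted p = 1.02e-07) and AGCAAC in 21.7% against 9.22% (adjusted p = 3.83e-04). Words of A and T alone were also more frequent, such as AAAATT (34.8% against 11.99%, Fisher's exact test, adjusted p = 4.04e-09), beside the lower GC content given above, and its part in the counts was not tested. Counting members that align to each other once left 47 words, the wider peaks gave 5, and including clustered regions gave 633. None of the 4 words named here passed in the wider peaks, where 41 distal intervals remained (by Fisher's exact test, adjusted p = 0.859 for AAGTCA at 17.1% against 9.89%, 0.0882 for ACCAAT at 21.95% against 5.58%, 0.297 for AGCAAC and 0.453 for AAAATT). The higher lists shared 12 words, 44.4% of the 27 and 6.82% of the 176, among them AGCAAC and also CCAATC.

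**Figure D4:**
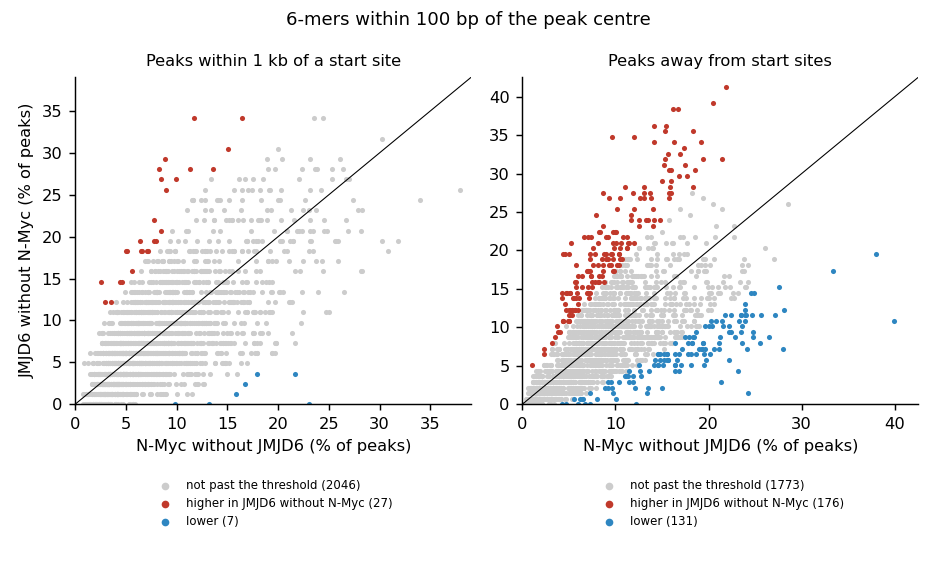
Percentage of peaks that held each 6-base word within 100 bp of the centre, in JMJD6 peaks without N-Myc (vertical) against N-Myc peaks without JMJD6 (horizontal), near start sites (left, 82 and 3723 peaks) and away from them (right, 138 and 4981 peaks). Red points passed the adjusted p of 0.05 and were higher, blue points were lower, and the line marks equal shares.

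The X-type and CCAAT words also occurred at a set distance. A GCAAC followed on the same strand by ATTGG, 32 to 35 bases from start to start, was found in 19 of 220 intervals (8.64%), in 1 of 67 shared peaks (1.49%) and in 15 of 8704 N-Myc peaks without JMJD6 (0.172%). The words and the spacing were chosen after the sequences had been seen, so these shares are a description without a test. Each word alone was less different, with GCAAC in 58.2% against 46.9%. The spacing of 33 bases was the most frequent, in 9 intervals, beside 5 at 35 bases, 4 at 32 and 1 at 34. Of the 71 spacings between 6 and 80 bases outside 32 to 35, none was in more than 3 intervals. In N-Myc peaks without JMJD6 no spacing exceeded 11 peaks (0.126%).

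Pairs were found near start sites (10 of 82) and away from them (9 of 138), and with chromosome 6 between 26 and 34 Mb left out (15 of 192, 7.81%, against 0.162%). Shared peaks had 0 of 46 near start sites. Away from them the shares were close, with 1 of 21 shared peaks (4.76%) against 6.52% of the 138 intervals. The pairs of the 19 intervals lay close to the middle of the interval, within 100 bp in 15 of 19. The 19 intervals were on 8 chromosomes. Besides those printed above they included intervals at EPS15, MR1, AHNAK, TTC9C with HNRNPUL2, and APOC1, and in introns of PTPRM, MAST3 and DHX34. With GNNAC in place of GCAAC, 45 of 220 intervals (20.5%) held a pair, against 5 of 67 shared peaks (7.46%) and 265 of 8704 N-Myc peaks without JMJD6 (3.04%). Away from start sites this form was in 22 of 138 intervals (15.9%) and in 3 of 21 shared peaks (14.3%). This looser form took in 11 of the 16 MHC and antigen presentation intervals and none of the 6 butyrophilin intervals. The search took both strands without regard to the direction of the gene. At HLA-C and HLA-E the pair lay on the strand opposite to the gene, as did at least 1 of the 3 pairs at HLA-B. At HLA-C and HLA-E its ATTGG was the reverse complement of the CCAAT printed above, so the count is not one of Y boxes. The looser form is shown for a class II, a class II chaperone and the B2M promoter, where it ran in the direction of the gene, with GNNAC and ATTGG in capitals.
HLA-DQB1, chr6:32634514-32634562, minus strand: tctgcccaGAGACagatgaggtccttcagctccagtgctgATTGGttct
HLA-DMA, chr6:32920945-32920994, minus strand: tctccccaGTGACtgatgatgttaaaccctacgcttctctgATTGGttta
B2M, chr15:45003624-45003674, plus strand: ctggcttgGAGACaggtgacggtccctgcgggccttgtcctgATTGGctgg

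**Figure D5:**
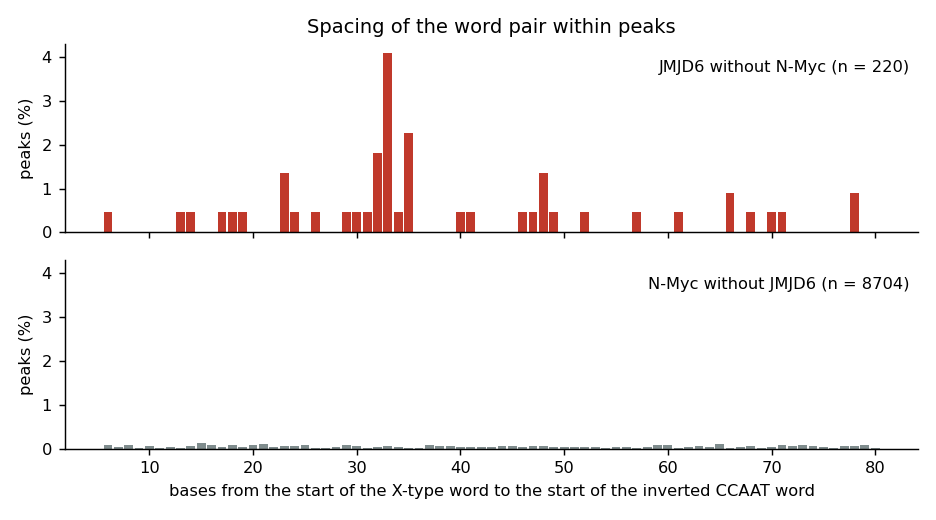
Percentage of peaks with a GCAAC and a following ATTGG word at each spacing in bases, in 220 JMJD6 peaks without N-Myc (top) and 8704 N-Myc peaks without JMJD6 (bottom), on the same scale. The highest bar of the JMJD6 peaks is at 33 bases.

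The dispersed repeat was met when the intervals were aligned to each other. Of 220 central windows, 68 aligned to at least 1 other over 50 bp or more, in 10 sets, the largest of 42 windows. A profile built from 27 of these, with a length of 315 bp, matched 34 of all 320 JMJD6 peaks without N-Myc (10.6%), 1 of 241 shared peaks and 0 of 9931 N-Myc peaks without JMJD6, which allows a share of up to 0.0302%. The profile was built on the intervals it was then counted in, so no test is given. The genome held 1276 copies at the same score, of which the 34 are 2.66%. The element was not matched to a repeat annotation here.

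The 34 intervals were narrow (194 to 445 bp, median 303 bp) and spread over 14 chromosomes. Of them, 18 lay between genes and 15 in introns, such as those of FBXL13, FANCC, OSBPL5, IL23R, PIGK and CACNA1B. None lay within 1 kb of a start site, the nearest being 1.085 kb from one, and none was in a JMJD6-listed enhancer. The closest N-Myc peak to any of them was 7.27 kb away, with a median of 107 kb. Every 75-base word was unique in 31 of the 34. The word AAGTCA was in the central window of 26 of the 34. Of the 48 distal intervals with AAGTCA 25 matched the repeat, and among 107 distal intervals that did not match it the word was in 23 (21.5%).

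Clustered regions were described apart. The 34 intervals on chromosome 2 ran from 14828181 to 16046021, with a median GC content of 34.1% and a median width of 563.5 bp. Of these, 25 were in introns, 8 between genes and 0 within 1 kb of a start site. NBAS held 15 of them (187 to 955 bp) and the non-coding gene ENSG00000287291 held 10. The interval nearest to MYCN (chr2:16045291-16046021, 731 bp) lay 34.7 kb from the gene, and 2 were within 100 kb. MYCN is amplified in this line, and copy number was not measured here. On chromosome 1 the 13 intervals lay between 89576532 and 89678713, with 6 in GBP7 and 3 in GBP2, genes of interferon-induced guanylate binding proteins, and 0 near a start site. The 48 intervals beside assembly gaps were on 16 chromosomes and narrow, with a median of 273.5 bp. Of the 10 widest intervals on nuclear chromosomes, 5 lay on chromosomes 1 and 2 within these clusters.

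Enhancers were read from the study's lists in the same way, in which the genes named are the nearest ones. Of 96 JMJD6-listed typical enhancers, 48 held a JMJD6 peak without N-Myc, through 49 intervals, and 29 of the 48 were not N-Myc-listed. The 10 with the widest intervals were near BTN3A1 (1118 bp), ZNF672 (1096 bp), NASP (1042 bp), EPS15 (975 bp), TEX14 (972 bp), STMN2 and IL7 (897 bp), KCNJ6 (862 bp), VCPIP1 (854 bp), BTN2A1 (845 bp) and DYRK1A (819 bp). Several of these are the promoters described above, so the lists overlap.

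Of 9 JMJD6-listed super-enhancers, 4 held such an interval. Those at KIAA1217 (chr10:24401037-24415269, interval of 696 bp) and ATF7IP (chr12:14536931-14572014, 2 intervals, the wider of 879 bp) were not N-Myc-listed. Those at TTC8 (chr14:89253166-89345048, interval of 148 bp) and NBAS (chr2:15382269-15385014, interval of 272 bp) were also N-Myc-listed. Of 12 marker genes of adrenergic neuroblastoma cells, none was beside a JMJD6-listed super-enhancer or typical enhancer, while HAND2, GATA3 and KLF7 were each beside an N-Myc-listed super-enhancer. The JMJD6 lists are short, with 9 super-enhancers against 162 and 96 typical enhancers against 4649 in the N-Myc lists, and no difference between them was tested. JMJD6 itself had no interval nearby, the nearest being at USP36, 2114 kb away.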

How the data were processed

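N-Myc and JMJD6 were each measured by ChIP-seq in 3 samples of CHP-134 cells, against input. Per the submitters' processing notes, reads were aligned to hg19 with BWA, peaks were called with MACS2 2.1.1.20160309, and SAMtools and bedtools were used; the versions of the last ones are not given in the sources used here. The deposited files are 12 lists of positions (start and end in bp, with gene symbols in the promoter and enhancer lists), made by the authors from peaks common to the replicates. They hold no score, read count or column of a single replicate, so depth is unknown and the precision is set by the number of peaks.

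The members and all lists were chosen with earlier results of these data known. Sequences were read from GRCh37 and gene parts from GENCODE release 44 mapped to it; 139 of 155 JMJD6-listed start sites with a known symbol (89.7%) lay within 100 bp of an annotated start. Shares were compared by two-sided Fisher's exact tests (SciPy 1.17.1) with Benjamini-Hochberg adjustment (statsmodels 0.14.6) over 5 shares or 17 motifs and both comparison classes, or over 2080 words, with a threshold of 0.05. Peaks are not replicates: these tests compare lists, intervals cover counting error only, and the limit beside a count of 0 is 3 counts. Genes were named by rule: all super-enhancers and fixed gene groups, the 20 promoters and 10 enhancers with the widest intervals, genes with 3 or more intervals, the 10 widest intervals and the 5 nearest to N-Myc. Other names, such as CD74, HCP5, MR1 and the motif and repeat intervals, were picked after their values were seen. Windows were aligned with BLAST+ 2.17.0 (50 bp or more), and the repeat profile was made with MAFFT 7.526 and searched with HMMER 3.4 at 30 bits. The word scan was tested on simulated data. Some genes and sequences are not reported here, in the text or in the plot of promoter intervals, and the counts over groups include them.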

Additional observations from a re-analysis of the deposited data

How the results depend on the processing

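Comparisons were repeated under the alternatives named below and 3 others, which used members at least 1 kb from any N-Myc peak, 100 bp in place of 1 kb for start sites, and 100 bp on each side of the centre. Of 94 values 67 kept their direction, their side of the threshold or, for counts, stayed within 1.5 times. Differences below are in percentage points, JMJD6 peaks without N-Myc minus the other class. With clustered regions included, the start site share differed by 1.47 from shared peaks and by -14.4 from N-Myc peaks without JMJD6, CpG island composition by 1.10 and non-unique sequence by -9.85 from shared peaks, 3 motifs passed against shared peaks and 633 words away from start sites. With peaks of a class closer than 100 kb counted once, non-unique sequence differed by -4.76 from shared peaks and -0.240 from N-Myc peaks without JMJD6, and 17 words passed near start sites. In peaks at least as wide as the median of their list, the start site share differed by -16.6 and 9.45, small RNA genes by -7.65 from shared peaks, CpG composition by -11.7 and non-unique sequence by -0.183 from N-Myc peaks without JMJD6, 3 and 5 motifs passed, and 6 and 5 words. This setting leaves fewer peaks. Without chromosome 6 between 26 and 34 Mb, the start site share differed by -12.3 from N-Myc peaks without JMJD6 and 7 words passed near start sites. With members that align to each other counted once, an alternative chosen after seeing the data, the start site share differed by 0.436 and CpG composition by -6.61 from N-Myc peaks without JMJD6, 4 motifs passed against shared peaks, and 16 and 47 words. With the B box alone the tRNA-like share differed by 0.113 from N-Myc peaks without JMJD6, and with 36-base words non-unique sequence differed by -10.1 from shared peaks. Non-unique sequence passed against shared peaks with clustered regions, with the 100 kb rule and with 36-base words. The causes were not tested.

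No paired analysis was possible because the lists pool the replicates and carry no column of a single one, and for the same reason no replicate was left out. The planned share of repeat-masked sequence was not run, since the reference read here marks no repeats. Depth, peak height and the agreement of single replicates were not assessed.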
